A study of Mus musculus with 4 samples.

Results

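The mitochondrial genome of the mouse is a small circular chromosome present in many copies per cell, and all of its 37 genes were taken from the count tables by their symbols, which start with mt-. They were 13 protein-coding genes, 2 ribosomal RNA (rRNA) genes and 22 transfer RNA (tRNA) genes, of 39179 gene identifiers in all. RNA came from macrophages sorted as CD45+, CD11b+, GR1- and F4/80+ cells from tumours grown under the skin of FVB mice. Of the 4 libraries, 2 came from tumours of MycCaP, a mouse prostate cancer line from a tumour driven by a MYC transgene, and 2 from tumours of MycCaP-BMP4, the same line made to overexpress the secreted growth factor BMP4. The age and sex of the mice, the vector and the number of clones behind the overexpressing line, and whether each library is a separate mouse are not given in the labels, so a p-value covers just the spread among these samples, and that spread may be technical. F4/80 is named in the titles of the MycCaP-BMP4 samples and not in those of the MycCaP samples, although all 4 carry 1 cell type label.

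Mitochondrial genes encode the core subunits of the respiratory chain and ATP synthase: 7 subunits of complex I (mt-Nd1 to mt-Nd6 and mt-Nd4l), cytochrome b of complex III (mt-Cytb), 3 subunits of complex IV (mt-Co1, mt-Co2 and mt-Co3) and 2 of ATP synthase (mt-Atp6 and mt-Atp8). Every other subunit is made from nuclear genes and imported. Both strands of the circle are copied into long RNAs that are cut at the tRNA sequences, which lie between most of the other genes. Most of the mRNAs then receive short poly(A) tails. The rRNAs also carry short tails and the mature tRNAs do not keep poly(A), so the poly(A) selection used for these libraries does not take the 3 classes equally. Macrophages use the respiratory chain both for ATP and to produce reactive oxygen species, and its activity differs between their activation states.

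Several of these genes have identical copies in the nuclear genome, which bears on how their reads can be assigned. On the genome build named for these files (GRCm38), GENCODE M21 lists 7 pseudogenes side by side on chromosome 1, from 24611535 to 24616197, each 100% identical to mitochondrial sequence over its aligned part (4133 bases in all, 0 mismatches). They are copies of the end of mt-Co1 (Gm29216), of mt-Co2 (Gm28661), mt-Atp6 (Gm10925), mt-Co3 (Gm28437), mt-Nd3 (Gm28438) and mt-Nd4l (Gm10222), and of the first part of mt-Nd4 (Gm28439). The 233 bases between Gm10925 and Gm28661, in the place where mt-Atp8 would lie, hold none of the copies found. Of the 7 copies, 1 has an entry in the count tables, Gm10222, with 16 and 11 counts in the MycCaP libraries and 22 and 24 in the MycCaP-BMP4 libraries. The first 75 bases of mt-Co2 (chrM:7013-7087, + strand) are set beside those of its chromosome 1 copy Gm28661 (chr1:24615491-24615565, - strand) and of an older copy on chromosome 2, Gm13341 (chr2:22587888-22587962, - strand), to show the difference between a copy that cannot be told from the gene and one that can. Capitals mark the positions where Gm13341 differs, which are C25T and G57A, with the mt-Co2 base first and positions counted from 1 at the start of the gene.
mt-Co2: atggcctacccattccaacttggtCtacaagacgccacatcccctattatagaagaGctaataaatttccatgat
Gm28661: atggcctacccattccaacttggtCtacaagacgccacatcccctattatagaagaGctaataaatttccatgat
Gm13341: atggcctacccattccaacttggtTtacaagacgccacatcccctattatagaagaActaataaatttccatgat
A read that lies within this stretch fits mt-Co2 and Gm28661 equally well, while a read over position 25 or 57 separates both from Gm13341. Including Gm13341, 5 annotated copies with 92.6% to 97.6% identity were in the count tables, at 0 to 251 counts. The copies with most counts were Gm13340, of mt-Co1, with 251, 111, 180 and 162 counts (MycCaP replicates 1 and 2, then MycCaP-BMP4 replicates 1 and 2), and Gm13341, with 85, 44, 73 and 107.

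Of the 6 protein-coding genes with few counts, 5 lay in annotated copies and mt-Atp8 did not. The share of a gene's 75-base windows that occur in an annotated nuclear transcript was 97.8% to 99.9% for mt-Co2, mt-Atp6, mt-Co3, mt-Nd3 and mt-Nd4l, and these 5 genes had 2 to 310 counts in any library. It was 0% for mt-Nd1, mt-Nd6 and mt-Cytb, 1.66% for mt-Nd5 and 5.71% for mt-Nd2, and reached 39.8% for mt-Co1 and 61.5% for mt-Nd4 (59.7% and 62.6% with windows of 36 bases, since the labels leave the length of each mate unclear). Those 7 genes had 2765 to 231890 counts. They are called the 7 mRNAs with sequence of their own in what follows, as each shared under 90% of its windows. The split was made after the counts were known, and mt-Atp8 was left out of the 7 for its place in the genome. mt-Atp8 goes against the match: it had 7 to 921 counts although 0% of its windows occurred in an annotated nuclear transcript (4.73% with windows of 36 bases). It is listed with the copied stretch for its place in the genome alone, and is left out of the values per kilobase that follow. Per kilobase, the 5 low genes lay between 0.294 and 19.8 CPM (counts per 1000000 gene counts, with edgeR's TMM scaling) and the 7 others between 87.7 and 5862 CPM. Both rRNA genes shared 0% of windows and lay between 484 and 843 CPM per kilobase. The part that shared sequence plays in the low counts was not tested. Reads that aligned to more than 1 place made up 8.01% to 10.6% of all counted reads and had been set aside by the authors' counting.

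**Figure D1:**
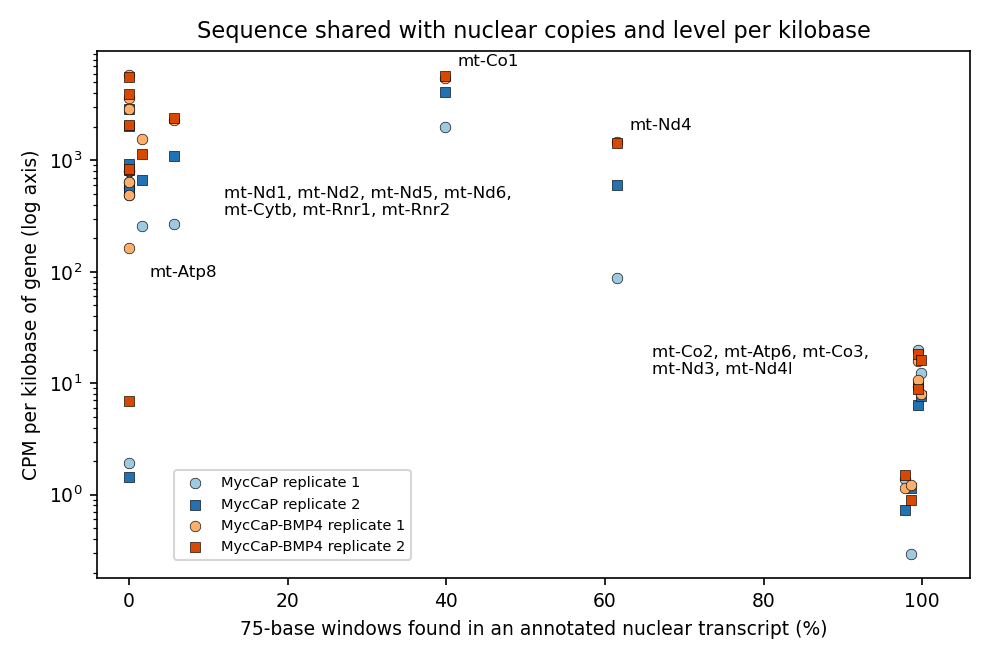
Each point is 1 protein-coding or rRNA gene in 1 library; the x axis is the share of its 75-base windows found in an annotated nuclear transcript (%) and the y axis its CPM per kilobase on a log axis. The 5 genes at 97.8% or more all lie under 20 CPM per kilobase, while mt-Co1 and mt-Nd4, shared in part, lie among the rest.

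A second limit is overlap between neighbours on the same strand, since reads over 2 genes are counted for neither in HTSeq's usual mode. The largest overlap is that of mt-Atp8 (chrM:7766-7969) and mt-Atp6 (chrM:7927-8607), which are read from 1 mRNA in different frames. The whole of mt-Atp8 and the first 150 bases of mt-Atp6 are shown with their common 43 bases in capitals, and the whole of mt-Nd4l (chrM:9877-10173) with the 7 bases it has in common with mt-Nd4 in capitals.
mt-Atp8: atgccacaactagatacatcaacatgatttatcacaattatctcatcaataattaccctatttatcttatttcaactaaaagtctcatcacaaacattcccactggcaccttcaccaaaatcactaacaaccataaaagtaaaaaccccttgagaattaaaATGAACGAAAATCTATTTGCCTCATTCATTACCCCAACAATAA
mt-Atp6: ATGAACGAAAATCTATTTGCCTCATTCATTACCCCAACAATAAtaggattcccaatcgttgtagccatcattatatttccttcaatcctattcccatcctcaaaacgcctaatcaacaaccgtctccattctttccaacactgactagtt
mt-Nd4l: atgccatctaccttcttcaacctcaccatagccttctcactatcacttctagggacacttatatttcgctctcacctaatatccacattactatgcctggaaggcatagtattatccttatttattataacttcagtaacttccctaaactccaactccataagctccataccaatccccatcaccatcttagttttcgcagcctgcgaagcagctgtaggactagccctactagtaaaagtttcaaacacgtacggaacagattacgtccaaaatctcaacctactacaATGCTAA
In mt-Atp8 the overlap is 43 of 204 bases, and in mt-Nd4l it is 7 of 297 bases. The sources used here do not say whether the counting used strand, so the values of mt-Nd6 and of the tRNA genes on the - strand may include RNA of the other strand over their whole length. mt-Nd6 also shares 14 bases with mt-Nd5 on the opposite strand.

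Library depth was even, from 23058263 to 24967143 counts in genes, so that 3 counts were worth 0.120 to 0.130 CPM before TMM scaling. The sort markers were present: all 15 pan-macrophage genes were detected, with a summed level of 29081 to 32719 CPM in MycCaP libraries and 6654 and 24657 CPM in MycCaP-BMP4 replicates 1 and 2. Of the 15, 12 were lower in both MycCaP-BMP4 libraries, where 29.7% of all tested genes were lower in that sense. The list's median log2 difference from the MycCaP mean came to -2.36 for MycCaP-BMP4 replicate 1 and -0.42 for replicate 2. Tumour epithelium genes stood at 114 and 148 CPM in sum in MycCaP libraries and at 803 and 319.7 CPM in MycCaP-BMP4 libraries. Of the 9 tested, 7 were higher in both and 1 lower (28.9% and 29.7% over all tested genes), and Krt5 was at 0 in each library. Summed levels of the other marker lists were 99.3 to 103 CPM against 17.2 to 48.0 CPM for T and NK cells, 54.4 to 95.7 against 31.1 to 48.1 CPM for endothelium, 157 to 399 against 263 to 289 CPM for fibroblasts, 71.7 to 73.4 against 51.6 to 67.2 CPM for neutrophils (Ly6g at 0), and 24.01 to 25.4 against 12.3 to 22.6 CPM for erythroid cells. Among neutrophil genes, Csf3r had 53.4 and 53.3 CPM in MycCaP libraries and 14.4 and 47.5 CPM in MycCaP-BMP4 libraries. S100a8 and S100a9 were highest in MycCaP-BMP4 replicate 1, at 11.6 and 21.6 CPM, and Retnlg in replicate 2, at 14.97 CPM. The groups overlapped for 4 of the 6 neutrophil genes tested, and 2 were lower in both MycCaP-BMP4 libraries. For T and NK cells, 10 of 12 genes were lower in both, and Cd4 held most of the sum in MycCaP-BMP4 replicate 2. Striated muscle genes, from a tissue rich in mitochondria, summed to 2.62 and 2.87 CPM in MycCaP libraries. In MycCaP-BMP4 libraries they summed to 4.20 and 2.41 CPM. Adipocyte genes summed to 58.5 to 62.5 CPM against 115 to 224 CPM with Lep and Cidec at 0, and 1 member, Fabp4, which macrophages also express, held nearly all of it. The part of other cells in the mitochondrial differences was not tested, and in RNA from a pool of cells a change in the number of cells of a type and a change in RNA per cell cannot be told apart.

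The comparison of the groups asks what BMP4 made by tumour cells does to the macrophages of the tumour. Mitochondrial mRNAs took a larger share of the MycCaP-BMP4 libraries, in both replicates, and mitochondrial rRNAs took a share that differed less. The 7 mRNAs with sequence of their own made up 0.543% (95% exact binomial interval 0.540% to 0.546%) and 1.49% (1.48% to 1.49%) of all gene counts in the first and second MycCaP library. They made up 3.10% (3.09% to 3.11%) and 2.63% (2.63% to 2.64%) in MycCaP-BMP4 replicates 1 and 2. These intervals cover counting error only. The group means were 1.01% ± 0.667 (SD, n = 2) and 2.87% ± 0.330 (SD, n = 2), a ratio of 2.82, and the groups did not overlap. An exact two-sided permutation test over the samples gave p = 0.333, the smallest value that 2 libraries against 2 allow. The control libraries stood further apart from each other than the MycCaP-BMP4 libraries did.

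Both rRNAs together took 0.125% and 0.137% of gene counts in MycCaP libraries and 0.168% and 0.210% in MycCaP-BMP4 libraries, a ratio of means of 1.45 (exact permutation p = 0.333, again the smallest possible). For each rRNA count, MycCaP libraries held 4.36 and 10.9 counts of the 7 mRNAs (replicates 1 and 2), where MycCaP-BMP4 libraries held 18.4 and 12.6. The 2 MycCaP libraries thus had nearly equal rRNA shares while their mRNA shares differed, and MycCaP replicate 1 stood apart from the other 3 libraries in this ratio.

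**Figure D2:**
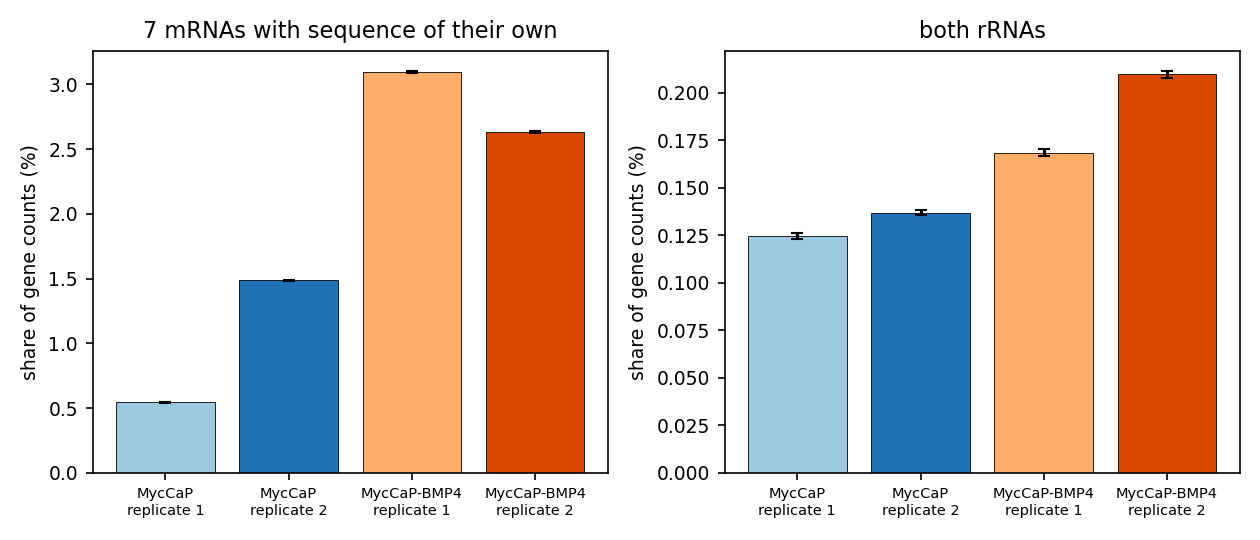
Bars give the share of each library's gene counts (%) taken by the 7 mitochondrial mRNAs with sequence of their own (left) and by both rRNAs (right), with 95% exact binomial intervals; the 2 panels have different scales. Both MycCaP-BMP4 bars exceed both MycCaP bars, with 3.10% and 2.63% against 0.543% and 1.49% on the left.

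No mitochondrial gene passed the test. The quasi-likelihood test of edgeR, adjusted by Benjamini-Hochberg, called 0 of 18 tested members, as it called 0% of the 14075 genes tested, at an adjusted p threshold of 0.05. At an unadjusted p under 0.05 there were 4 members, all higher in MycCaP-BMP4 (mt-Nd5, mt-Nd6, mt-Atp8 and mt-Te), where 12.3% of all tested genes were higher at that level and 6.76% lower. Of these, mt-Atp8 and mt-Te passed the filter on low counts only through their MycCaP-BMP4 counts, so they could enter the test only as higher. DESeq2 called 7 members, all higher (mt-Nd1, mt-Nd2, mt-Nd4, mt-Nd5, mt-Nd6, mt-Cytb and mt-Atp8), where it called 6.95% of its tested genes higher and 3.24% lower, and limma-voom called none. Of the 18 tested members, 12 had both MycCaP-BMP4 values above both MycCaP values and 0 had both below, where 28.9% of all tested genes were higher in that sense and 29.7% lower. The 12 include mt-Atp8 and mt-Te, whose direction the filter fixed. Members are cut from shared long RNAs and were measured in the same libraries, so these counts are not of independent results. The 19 members that were not tested fell under edgeR's filter on low counts: they were mt-Nd4l and 18 tRNA genes. The median log2 fold change (MycCaP-BMP4 over MycCaP) was 1.49 over the 12 tested protein-coding genes and 1.63 over the 7 with sequence of their own, beside -0.029 over all genes tested. Scaled on the pan-macrophage genes in place of TMM, edgeR called 9 members, all higher, where 6.97% of tested genes were called higher and 0.163% lower. The 9 were mt-Nd1, mt-Nd2, mt-Co1, mt-Nd4, mt-Nd5, mt-Nd6, mt-Cytb, mt-Atp8 and mt-Te. For mt-Atp8 and mt-Te the filter had fixed the direction, and both are also among the members called without MycCaP-BMP4 replicate 2, given below. With no filter on low counts edgeR called mt-Atp8 and mt-Nd6, both higher (3.59% of genes higher, 1.49% lower). Without MycCaP-BMP4 replicate 1 it called mt-Nd1 and mt-Nd6, both higher (4.48% higher, 2.63% lower), and without MycCaP-BMP4 replicate 2 it called 8 members, all higher (18.5% higher, 20.2% lower).

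**Figure D3:**
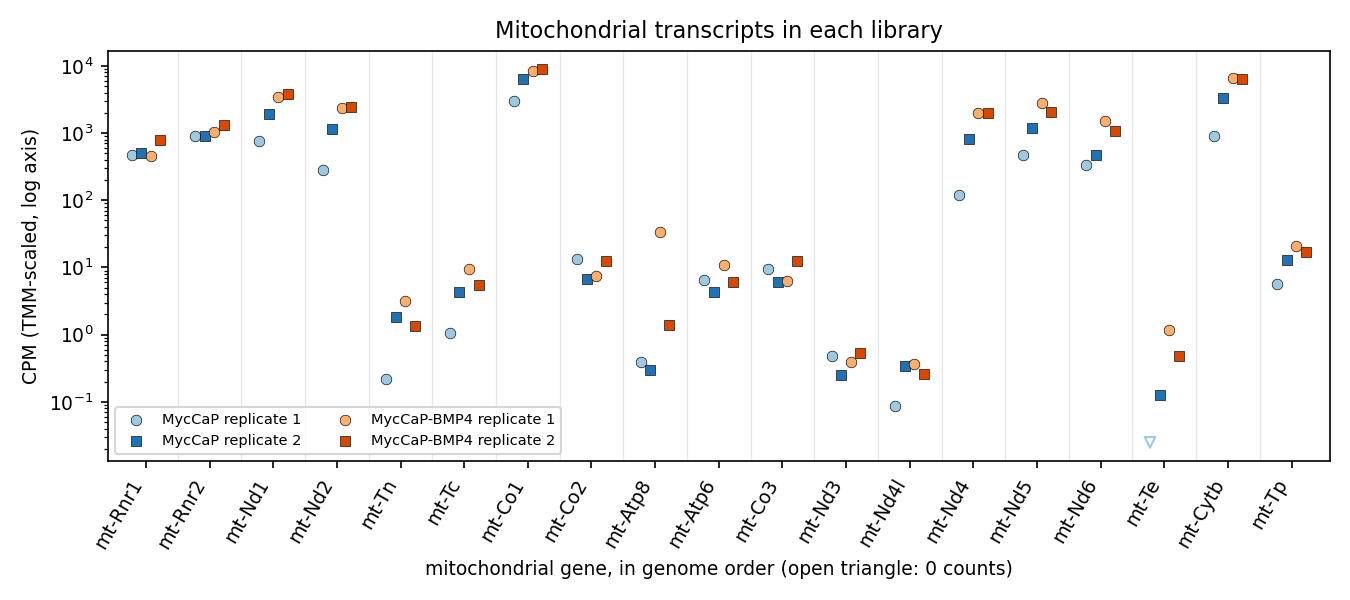
Each point is the TMM-scaled CPM (log axis) of 1 gene in 1 library, for the 13 protein-coding genes, both rRNAs and the 4 tRNA genes with most counts, in genome order; an open triangle marks 0 counts. MycCaP replicate 1 is the lowest of the 4 libraries for mt-Nd1, mt-Nd2, mt-Co1, mt-Nd4, mt-Nd5, mt-Nd6 and mt-Cytb, and both MycCaP-BMP4 libraries are above both MycCaP libraries for all 7.

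Complex I passes electrons from NADH into the chain, and 5 of its mitochondrial subunits had sequence of their own. mt-Nd1 (chrM:2751-3707, + strand), a membrane subunit next to the quinone site, had 768 and 1931 CPM in MycCaP replicates 1 and 2, against 3467 and 3776 CPM in the MycCaP-BMP4 libraries (order of replicates kept throughout). The MycCaP-BMP4 libraries lay close together and above both controls, with a log2 fold change of 1.42 ± 0.61 (SE) and an edgeR adjusted p of 0.283. mt-Nd2 (chrM:3914-4951, + strand), a core subunit of the proton-pumping arm, had 281 and 1137 CPM against 2374 and 2464 CPM. Its 2 control values differed 4.05-fold, more than the 2 MycCaP-BMP4 values by far, and its log2 fold change was 1.77 ± 0.73 (edgeR adjusted p = 0.269).

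mt-Nd4 (chrM:10167-11544, + strand), another pumping subunit, had 121 and 828 CPM in MycCaP libraries and 1996 and 1986 CPM in MycCaP-BMP4 libraries. It had the widest gap between the controls of the 7 mRNAs, 6.85-fold, and near-equal values in the other group. The log2 fold change was 2.07 ± 0.90 (edgeR adjusted p = 0.288), and it moved to 1.25 without MycCaP replicate 1 and 4.04 without MycCaP replicate 2. mt-Nd5 (chrM:11742-13565, + strand), the longest of the subunits, had 468 and 1207 CPM against 2813 and 2091 CPM, all MycCaP-BMP4 values above all MycCaP values, a log2 fold change of 1.55 ± 0.60 (unadjusted p = 0.0438, edgeR adjusted p = 0.251).

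mt-Nd6 (chrM:13552-14070) is the 1 protein-coding gene on the - strand of the annotation. It had 333 and 479 CPM in MycCaP libraries and 1513 and 1069 CPM in MycCaP-BMP4 libraries. Its controls were the closest pair among the 7 mRNAs, 1.44-fold apart, and its p was the smallest of the members (unadjusted 0.00908, edgeR adjusted p = 0.155), with a log2 fold change of 1.67 ± 0.43. The strand its reads came from is not known, as said above. Per kilobase, mt-Nd6 stood above its neighbour mt-Nd5 in each library, 2.50-fold and 1.39-fold in the MycCaP libraries and 1.89-fold and 1.80-fold in the MycCaP-BMP4 libraries. Poly(A) selection may not take these 2 mRNAs alike, and its part in these ratios was not tested.

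mt-Cytb (chrM:14145-15288, + strand), which carries the ubiquinol sites of complex III, had 909.65 and 3330.5 CPM against 6706 and 6403 CPM. The MycCaP-BMP4 libraries agreed within 1.05-fold while the controls differed 3.66-fold. The log2 fold change was 1.63 ± 0.76 (edgeR adjusted p = 0.313). mt-Co1 (chrM:5328-6872, + strand), the catalytic subunit of complex IV, was the mitochondrial mRNA with most counts, at 3048 and 6381 CPM against 8391 and 8853 CPM. The groups did not overlap, but its log2 fold change of 0.87 ± 0.65 was the smallest of the 7 mRNAs (edgeR adjusted p = 0.497), and without MycCaP replicate 1 it was 0.42.

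Over the 7 mRNAs the ratio of MycCaP replicate 2 to replicate 1 ran from 1.44 to 6.85, and that of MycCaP-BMP4 replicate 1 to replicate 2 from 0.918 to 1.41. Set against the MycCaP mean, their median log2 difference was -0.84 and 0.53 for the MycCaP libraries and 1.74 and 1.48 for the MycCaP-BMP4 libraries. The 2 MycCaP-BMP4 libraries were thus close in mitochondrial mRNA, although their pan-macrophage medians were -2.36 and -0.42. Without MycCaP replicate 1 the median log2 fold change of the 7 genes was 1.01 in place of 1.63, and without MycCaP replicate 2 it was 2.38. Without MycCaP replicate 1 the single values ran from 0.42 to 1.42, and without MycCaP replicate 2 from 1.49 to 4.04. All 7 kept a positive sign in each alternative run. Leaving out 1 library could hardly turn a sign, since the groups did not overlap for any of the 7.

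The make-up of the 7 mRNAs differed between libraries as well. mt-Co1 held 51.4% and 41.7% of their counts in MycCaP libraries, against 30.8% and 33.2% in MycCaP-BMP4 libraries, so its share was lower in both MycCaP-BMP4 libraries. mt-Cytb held 15.3% and 21.8% against 24.6% and 24.03%, mt-Nd4 held 2.04% and 5.42% against 7.32% and 7.46%, and mt-Nd2 held 4.73% and 7.44% against 8.71% and 9.25%. These 3 genes took larger shares in both MycCaP-BMP4 libraries. mt-Nd1 held a steady share, 12.6% to 12.96% in MycCaP libraries and 12.7% and 14.2% in MycCaP-BMP4 libraries. mt-Nd6 had 5.61% and 3.13% against 5.55% and 4.01%, and mt-Nd5 had 7.89% in both MycCaP libraries against 10.3% and 7.85%, with the groups overlapping for both. Shares in a library add up to a whole, so a gene's share can fall while its level is higher, and they are given without a test.

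**Figure D4:**
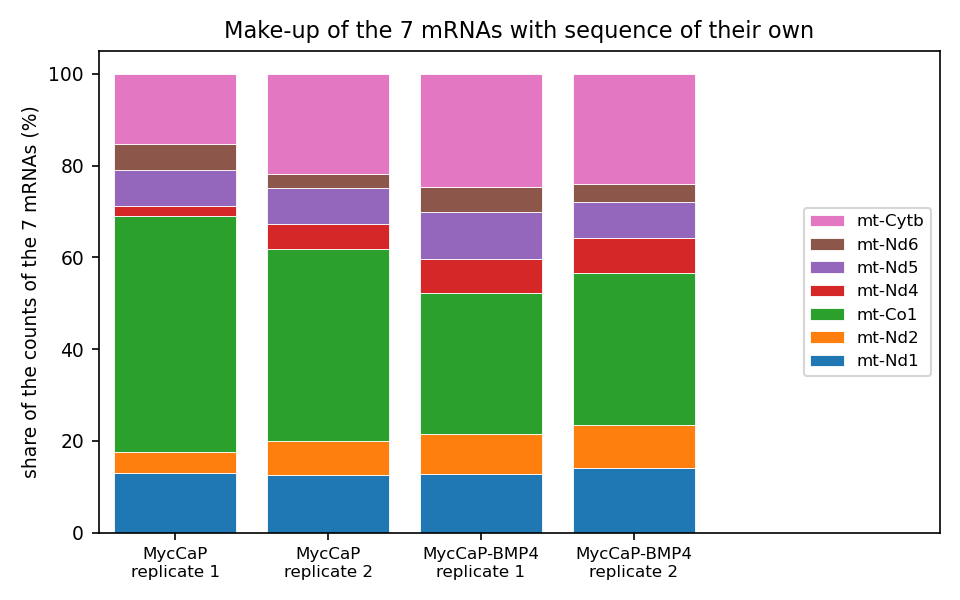
Stacked bars give the share (%) of each of the 7 mRNAs in their summed counts, 1 bar per library. The mt-Co1 block is 51.4% and 41.7% in the MycCaP libraries and 30.8% and 33.2% in the MycCaP-BMP4 libraries, while the mt-Nd4 and mt-Cytb blocks are larger there.

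Genes of the copied stretch had few counts, and the groups overlapped for each of the 5 with identical copies. mt-Co2, the copper-binding subunit of complex IV that takes electrons from cytochrome c, had 310 and 157 counts in MycCaP libraries and 203 and 284 in MycCaP-BMP4 libraries. mt-Co3, its structural partner in the complex, had 220 and 143 against 175 and 289 counts. mt-Atp6, the membrane subunit of the ATP synthase proton channel, had 148 and 102 against 297 and 139 counts. For all 3 the groups overlapped, with log2 fold changes of -0.027 ± 0.50, 0.28 ± 0.49 and 0.65 ± 0.48 and edgeR adjusted p of 0.981, 0.778 and 0.492. mt-Nd3 had 11 and 6 against 11 and 12 counts, and mt-Nd4l had 2 and 8 against 10 and 6, both small complex I subunits. Among these 5 genes the order of the MycCaP libraries differed from that of the 7 mRNAs for all but mt-Nd4l: MycCaP replicate 1 had the higher count.

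mt-Atp8, a small subunit of ATP synthase whose sequence is shown above with its overlap, stood apart. It had 9 and 7 counts in MycCaP libraries, 921 in MycCaP-BMP4 replicate 1 and 32 in MycCaP-BMP4 replicate 2. In CPM this was 0.393 and 0.295 against 33.3 and 1.40, so 1 library held nearly all the counts and the MycCaP-BMP4 libraries differed 23.7-fold. The group means were 0.344 ± 0.0694 CPM (SD, n = 2) and 17.4 ± 22.6 CPM (SD, n = 2), a difference smaller than the SD of the second group. The log2 fold change was 5.64 ± 1.55 (edgeR adjusted p = 0.164), and 2.01 without MycCaP-BMP4 replicate 1. As said above, mt-Atp8 could enter the test only as higher. Its neighbour mt-Atp6, read from the same mRNA, had 297 counts in that library and 102 to 148 in the others.

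The 12S and 16S rRNAs build the 2 subunits of the mitochondrial ribosome. mt-Rnr1 (12S, chrM:70-1024, + strand) had 465 and 511 CPM in MycCaP libraries and 462 and 787 CPM in MycCaP-BMP4 libraries, and the groups overlapped. Its log2 fold change was 0.36 ± 0.40 (edgeR adjusted p = 0.649), and it was -0.051 without MycCaP-BMP4 replicate 2. mt-Rnr2 (16S, chrM:1094-2675, + strand) had 894 and 897 CPM against 1020.05 and 1334 CPM, with the groups apart but a log2 fold change of only 0.39 ± 0.39 (edgeR adjusted p = 0.605). Per kilobase the 16S gene stood above the 12S gene by 1.02-fold to 1.33-fold in the 4 libraries. Per kilobase, mt-Nd1, which follows mt-Rnr2 on the same strand with mt-Tl1 between them, had 803 and 2018 CPM in the MycCaP libraries against 565 and 567 CPM for mt-Rnr2, and 3623 and 3946 CPM against 645 and 843 CPM in the MycCaP-BMP4 libraries.

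Of the 22 tRNA genes, 10 had a count in any library and 12 had none. By depth alone, a 0 allows up to 0.120 to 0.130 CPM in a library. These genes are just 59 to 75 bases long, and many touch or overlap a neighbour. Reads that also cover the neighbour may have been counted for neither gene, and poly(A) selection takes mature tRNAs poorly. A 0 therefore sets no bound on the level of a tRNA. Almost all tRNA counts were assigned to the 8 tRNA genes annotated on the - strand, and the strand of the reads themselves is not known. These 8 genes had 160 and 460 counts in MycCaP libraries and 976 and 553 in MycCaP-BMP4 libraries. The 14 tRNA genes annotated on the + strand had 8 counts in all, each in MycCaP-BMP4 replicate 1. The 4 tRNA genes with most counts all lie on the - strand, and their DNA is shown 5′ to 3′ as encoded, with no base marked.
mt-Tp: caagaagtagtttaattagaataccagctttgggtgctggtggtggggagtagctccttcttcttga
mt-Tc: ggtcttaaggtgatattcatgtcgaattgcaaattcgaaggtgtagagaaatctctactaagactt
mt-Tn: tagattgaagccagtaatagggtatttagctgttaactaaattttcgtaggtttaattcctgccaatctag
mt-Te: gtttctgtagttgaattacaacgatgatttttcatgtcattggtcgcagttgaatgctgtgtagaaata
All 4 are 66 to 71 bases long.

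mt-Tp (proline, chrM:15356-15422), the last gene before the non-coding control region, had 5.68 and 12.9 CPM in MycCaP libraries and 21.2 and 17.03 CPM in MycCaP-BMP4 libraries, with the groups apart. Its log2 fold change was 1.04 ± 0.46 (edgeR adjusted p = 0.297). mt-Tc (cysteine, chrM:5192-5257), 32 bases from mt-Tn, had 24 and 104 counts against 266 and 123, groups apart, a log2 fold change of 1.46 ± 0.76 (edgeR adjusted p = 0.349). Without MycCaP replicate 1 this was 0.76 and without MycCaP replicate 2 it was 2.83, where mt-Tp had 0.56 and 1.74. mt-Tn (asparagine, chrM:5089-5159) had 5 and 43 against 87 and 31 counts, and here the groups overlapped. mt-Te (glutamate, chrM:14071-14139), which follows mt-Nd6 with no base between them, had 0 and 3 against 33 and 11 counts. Its log2 fold change was 3.62 ± 1.26 (edgeR adjusted p = 0.223), in a direction that the filter on low counts had fixed. With the libraries of a group pooled, the ratio per gene count was 15.3, with an exact 95% interval of 4.90 to 76.9. That interval covers counting error only and leaves out the spread between libraries. The other 18 tRNA genes had 0 to 5 counts in each library. As among the mRNAs, MycCaP replicate 1 was the lowest of the 4 libraries for all 4 of these tRNA genes.

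Lists of nuclear genes that serve the mitochondrial genome had medians nearer to 0 than that of the 7 mRNAs. Each list was described by the same fit, with 0 genes called in any of them, and each count of higher or lower genes stands beside 28.9% higher and 29.7% lower over all tested genes. These medians depend on the scaling and the libraries: on pan-macrophage scaling all 14 moved upward, beside a median of 1.58 over all genes, and without MycCaP-BMP4 replicate 1, the library lowest in pan-macrophage genes, 10 of the 14 moved. Of 20 genes for maintaining and transcribing mitochondrial DNA, 8 stood higher in both libraries of the MycCaP-BMP4 group and 1 stood lower, and the list's median log2 fold change came to 0.33, or 0.088 without MycCaP-BMP4 replicate 1. Polrmt, the mitochondrial RNA polymerase, had 15.3 and 13.8 CPM in MycCaP libraries and 22.8 and 15.5 CPM in MycCaP-BMP4 libraries. Tfam, which packs the DNA and starts transcription at its promoters, had 33.6 and 27.97 against 36.3 and 27.3 CPM, with the groups overlapping, and a log2 fold change of 0.05 ± 0.28.

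Tfb2m, which opens the promoter for the polymerase, had 5.55 and 6.96 against 14.7 and 8.9996 CPM, with groups apart and a log2 fold change of 0.92 ± 0.41 (edgeR adjusted p = 0.299). Twnk, the helicase of mitochondrial DNA replication, had 8.87 and 8.78 against 35.5 and 14.5 CPM, and Mterf2, a factor that binds the mitochondrial genome, had 0.656 and 0.844 against 4.45 and 2.195 CPM. Both lay higher in MycCaP-BMP4 replicate 1 than in replicate 2. Tk2, a mitochondrial thymidine kinase, was the 1 gene of the list that was lower in both, at 48.04 and 39.4 against 17.7 and 31.3 CPM.

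Genes for processing and stabilising mitochondrial RNA included 27 tested. Of these, 16 stood higher in both libraries of the MycCaP-BMP4 group and 3 stood lower (median log2 fold change 0.50, or 0.18 without MycCaP-BMP4 replicate 1). Lrpprc, which with its partner Slirp keeps mitochondrial mRNAs stable and polyadenylated, had 66.5 and 64.4 CPM against 121 and 87.3 CPM, a log2 fold change of 0.67 ± 0.28 (edgeR adjusted p = 0.270). Mtpap, the mitochondrial poly(A) polymerase, had 16.2 and 25.9 against 28.3 and 29.5 CPM. It was lowest in MycCaP replicate 1, as the 7 mRNAs were, but the list as a whole was not. The list's median log2 difference from the MycCaP mean was -0.010 and 0.010 in MycCaP replicates 1 and 2. Trmt10c, a subunit of the mitochondrial RNase P that cuts the 5′ ends of tRNAs, had 17.8 and 17.6 against 40.96 and 25.6 CPM, and Grsf1, a protein of mitochondrial RNA granules, had 98.4 and 105 against 270.2 and 145 CPM. The list's median log2 difference from the mean of the MycCaP libraries was 0.59 and 0.18 for the MycCaP-BMP4 replicates, where the 7 mRNAs had 1.74 and 1.48.

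Nuclear subunits of the same complexes had medians near 0 or below with TMM scaling, and medians of 1.56, 1.15, 1.78, 1.71 and 1.67 for complexes I to V on pan-macrophage scaling, where the 7 mRNAs had 3.27. Of 37 nuclear complex I genes, 8 were higher and 10 lower in both libraries of the MycCaP-BMP4 group (median log2 fold change -0.16, turning to 0.022 with library size alone, 0.044 without MycCaP replicate 1 and 0.0010 without MycCaP-BMP4 replicate 2). These counts lay near or under the shares over all genes, 28.9% higher and 29.7% lower. The medians were -0.38 for complex II (4 genes, all 4 lower), 0.06 for complex III (9 genes, 1 higher and 2 lower), 0.02 for complex IV (15 genes, 0 higher and 4 lower) and -0.04 for ATP synthase (17 genes, 0 higher and 3 lower). Among single members, Ndufb2 had 8.87 and 9.66 CPM against 24.9 and 13.7 CPM, and Ndufa12 had 27.1 and 41.7 against 56.1 and 49.2 CPM. On the lower side, Sdhb, the iron-sulphur subunit of complex II, had 238 and 161 against 125 and 135 CPM, and Cox4i2, an isoform of a complex IV subunit known for expression in low oxygen, had 5.86 and 4.68 against 0.326 and 0.659 CPM. Of 75 genes for mitochondrial ribosomal proteins, 21 were higher, near the 28.9% over all genes, and 8 lower, with a median of 0.06 that turned to -0.086 without MycCaP-BMP4 replicate 1 and -0.034 without MycCaP replicate 2. Mrps6, a protein of the small subunit, was far above the rest, with 22.6 and 21.01 against 230.2 and 102 CPM and a log2 fold change of 2.93 ± 0.45 (edgeR adjusted p = 0.112).

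Regulators of mitochondrial mass were mixed. Of 13 tested, 4 were higher and 5 lower in both libraries of the MycCaP-BMP4 group (median log2 fold change -0.049), near the 28.9% and 29.7% over all genes. The median turned to 0.073 with library size alone and 0.088 without MycCaP-BMP4 replicate 1. Pprc1, a coactivator of the PGC-1 family that responds to growth signals, had 30.95 and 29.7 CPM in MycCaP libraries and 110.2 and 78.2 CPM in MycCaP-BMP4 libraries, a log2 fold change of 1.63 ± 0.28 (edgeR adjusted p = 0.122). Myc had 59.4 and 87.9 against 408 and 163 CPM. The tumour epithelium genes given above were also higher in these libraries, with more in replicate 1, and their part in this difference was not tested. Esrra, a nuclear receptor that drives respiratory genes, had 39.2 and 33.8 against 21.2 and 30.2 CPM.

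Of 11 genes for the removal of mitochondria, 0 were higher and 7 lower (28.9% and 29.7% over all genes), with a median of -0.34 that was -0.62 without MycCaP-BMP4 replicate 2 and 1.11 on pan-macrophage scaling. Pink1, the kinase that marks damaged mitochondria, had 71.7 and 67.6 CPM against 38.03 and 42.5 CPM, and Bnip3, a receptor for their removal that is induced by low oxygen, had 223 and 217 against 131 and 117 CPM. Both were at like levels in the 2 MycCaP-BMP4 libraries, as the 7 mRNAs were. The list's median log2 difference from the MycCaP mean was -0.65 and -0.24 in MycCaP-BMP4 replicates 1 and 2. Genes for fusion, fission and the outer membrane had 4 higher and 1 lower of 12 (median 0.09, turning to -0.041 without MycCaP-BMP4 replicate 1 and -0.023 without MycCaP replicate 2), among them Vdac1, the main outer membrane channel, with 236 and 268 against 477 and 330.1 CPM. Those of the mitochondrial unfolded protein response had 6 higher and 2 lower of 10 (28.9% and 29.7% over all genes; median 0.48, or 0.13 without MycCaP-BMP4 replicate 1), among them Clpp, a matrix protease subunit, with 25.9 and 25.4 against 64.04 and 32.0 CPM, and Trib3, a stress-induced pseudokinase, with 6.12 and 4.47 against 2.28 and 0.702 CPM.

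**Figure D5:**
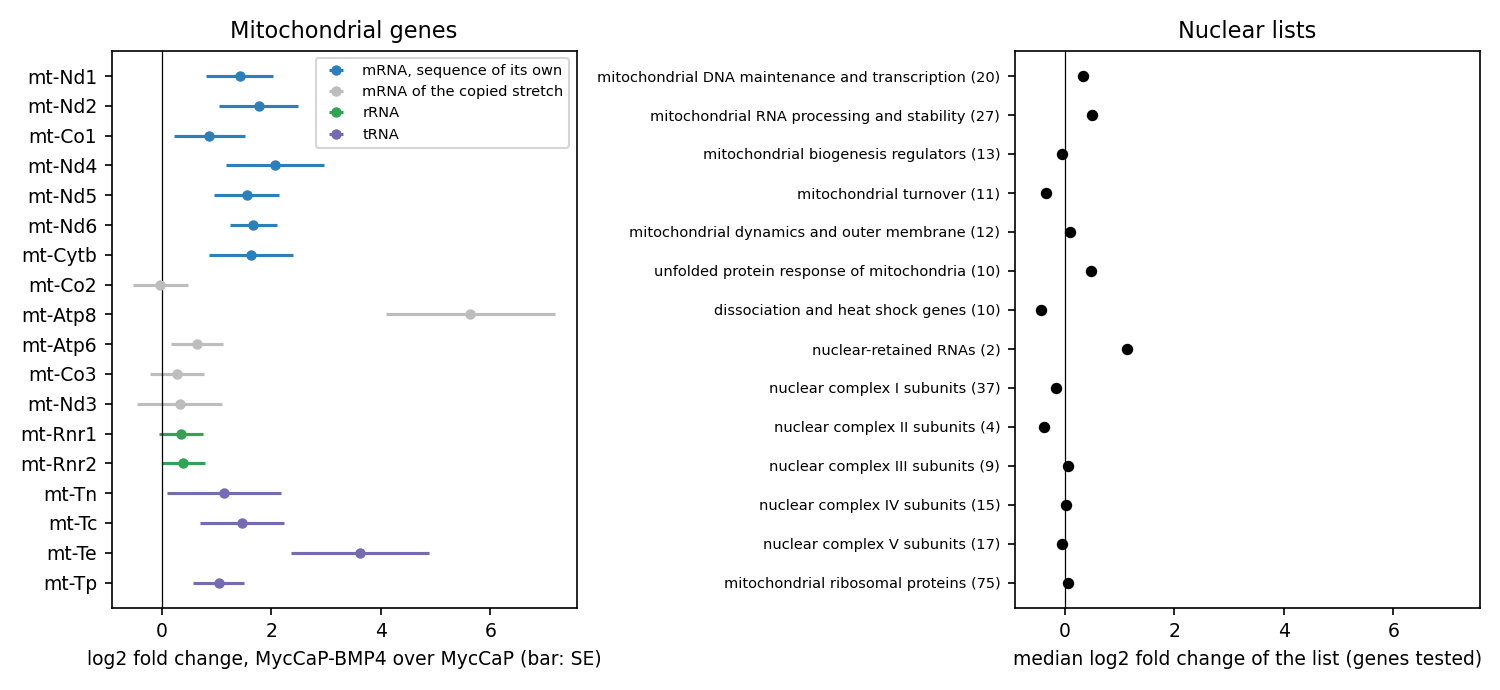
On the left, points give the edgeR log2 fold change (MycCaP-BMP4 over MycCaP) of the 18 tested mitochondrial genes, with SE bars; on the right, points give the median log2 fold change of each nuclear list, with the number of genes tested in brackets. The 7 mRNAs with sequence of their own lie between 0.87 and 2.07, the rRNAs at 0.36 and 0.39, and the medians for nuclear subunits of complexes I to V between -0.38 and 0.06.

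Measures of RNA and handling are given beside these values. Reads assigned to no annotated gene were 3.98% and 3.37% of all counted reads in MycCaP libraries and 6.01% and 6.03% in MycCaP-BMP4 libraries, higher in both of the latter. The nuclear-retained RNAs Malat1, at 264 and 235 CPM against 407 and 495 CPM, and Neat1, at 97.1 and 67.8 against 175 and 267 CPM, were higher in both MycCaP-BMP4 libraries. Genes induced by tissue dissociation and heat shock had 1 higher and 5 lower of 10 (28.9% and 29.7% over all genes), with a median log2 fold change of -0.44 that was -0.055 without MycCaP-BMP4 replicate 1. Hspa1b, a heat shock chaperone, had 715 and 679.99 against 262 and 426 CPM, and Egr1, an immediate early gene, went the other way, with 288 and 399 against 469 and 748 CPM. The part of RNA quality or handling in the mitochondrial values was not tested.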

How the data were processed

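Per the labels' protocols, RNA with an integrity number above 7 was poly(A)-selected and made into strand-specific libraries. The authors deposited whole-number counts of reads per Ensembl gene. The submitters' processing notes list STAR 2.6.0b, HTSeq, RSEM, Bowtie2 2.2.3 and GRCm38 (mm10), with no roles. The sources used here do not give the annotation release or the strand setting. Symbols were matched for 37607 of 39179 identifiers. Summary lines without a gene (14.6% to 19.4% of all counted reads) did not enter library sizes, which were 23058263 to 24967143.

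Counts of all genes were fitted together in edgeR 4.0.16 (R 4.3.3): filterByExpr (minimum count 10), TMM factors, quasi-likelihood F test, no covariate, Benjamini-Hochberg adjustment over 14075 genes. SE is the fold change divided by the square root of F. The test was checked on simulated data. DESeq2 1.42.0 and limma 3.58.1 were alternatives, with other scalings, filters, a replicate block and each library left out. Log2 differences from the MycCaP mean use a pseudocount of 0.1 CPM. Windows of 75 bases were searched on both strands of all GENCODE M21 transcripts, and copies were aligned with Biopython 1.88.

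Members and lists were chosen with earlier results of these data known. Named are all members (tRNAs: the 4 with most counts), up to 2 genes per direction of each nuclear list by p, and 5 fixed genes of mitochondrial transcription and RNA stability. Other nuclear genes enter through their lists.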

Additional observations from a re-analysis of the deposited data

How the results depend on the processing

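The median log2 fold change of the 7 mRNAs with sequence of their own, 1.63, ran from 1.01 to 2.38 with 1 library left out (lowest without MycCaP replicate 1, highest without MycCaP replicate 2). Scaled on the pan-macrophage genes it was 3.27, and that of all tested protein-coding genes 3.11, beside a median of 1.58 over all genes. With library size alone these medians were 1.78, 1.64 and 0.14, in the same order. That scaling called 9 mitochondrial genes of 1004 in all, the fit with no filter on low counts 2 of 1109, and DESeq2 7 of 1483. Library size alone called 65 genes, none mitochondrial. With 1 library left out, 0 to 8 mitochondrial genes and 0 to 5753 of all genes were called. The count was 5753 (8 mitochondrial) without MycCaP-BMP4 replicate 2 and 1043 (2 mitochondrial, mt-Nd1 and mt-Nd6) without replicate 1. The lone library of a group is then assumed to vary like the other group. The cause of these differences was not tested.

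The replicate numbers share no stated source, and deviations of same-numbered libraries correlated at -0.127 over 14075 genes. With the replicate block 2 genes were called, none mitochondrial, and mt-Co2 turned to 0.012. The crossed pairing, added after the data were seen, called 689 genes, none mitochondrial, with mt-Co2 at 0.013. mt-Co2 (-0.027) also turned to 0.13 with library size alone and 1.39 on pan-macrophage scaling. With 1 library left out, mt-Co2 ran from -0.46 to 0.57 (above 0 without MycCaP replicate 1, and at 0.30 without MycCaP-BMP4 replicate 1), mt-Co3 from -0.28 (without MycCaP-BMP4 replicate 2; -0.022 without MycCaP replicate 2) to 0.69, mt-Nd3 from -0.065 (without MycCaP replicate 2) to 0.84, and mt-Rnr1 from -0.051 (without MycCaP-BMP4 replicate 2) to 0.69. The other tested members kept their direction in those of the 14 alternatives that tested them. For most of these the groups did not overlap, so leaving out 1 library could hardly turn them. Of the 14 medians of nuclear lists, 14 moved on pan-macrophage scaling, 8 with library size alone, 1 with the stricter filter, 2 and 3 without MycCaP replicates 1 and 2, and 10 and 7 without MycCaP-BMP4 replicates 1 and 2.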
